A study of Mus musculus with 194 samples.

Results

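The regions described here are 50 kb windows of the mouse genome (GRCm38, chromosomes 1 to 19). In them, transposon insertions were strongly gained in the animals labelled SP1. A window was a member when it held at least 30 insertions summed over the 3 SP1 animals of postnatal day 10 (P10) and at least 5 times the CPM of the 6 summed Syn1Cre animals, CPM being insertions per 1000000 insertions on these chromosomes. This rule took 408 of 47313 windows that held an insertion in any table. A further 1201 windows also had 30 or more P10 insertions but stayed under the ratio, and they serve here as the nearest comparison. The members were chosen by their P10 and Syn1Cre values, so these are given as a description and support no test.

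In calling cards, a transposase inserts a reporter transposon at TTAA sequences, and a DNA-binding protein fused to it directs the insertions to the neighbourhood of that protein's binding sites. SP1 is a zinc finger transcription factor that binds GC boxes, short GC-rich elements common in promoters of widely expressed genes. Recruitment of the transcription machinery to promoters that lack a TATA box is the role it is best known for.

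All animals received AAV on postnatal day 0 to 1, and insertions were read from cortex RNA as self-reporting transposons, per the labels. The SP1 groups (Syn1Cre_SP1_P10 with 3 animals, Syn1Cre_SP1_P28 with 4) and the Syn1Cre group (6 animals) are of a line in which the synapsin 1 promoter drives Cre, a line used to express it in neurons. GFAPCre (6 animals) is the corresponding line for astrocytes, and C57bl6J (2 animals) were given viruses that need no Cre. Syn1CreNeg (6 animals), a label read as the Syn1Cre line's animals without Cre, served as 1 alternative control. P10 and P28 are read as the postnatal day of collection. The labels give no collection age for the other groups, do not name the transposase and do not describe the SP1 construct. N2a is a mouse neuroblastoma line, deposited as 1 table that merges 3 experiments and therefore has no replicates. Insertions on chromosomes 1 to 19 numbered 84941 to 93185 in the P10 animals, 106446 to 564530 in the P28 animals, 1510040 and 2133377 in C57bl6J, 585792 to 1468600 in GFAPCre and 791147 in N2a. Every P10 animal shared sequencing pools with P28 animals 2 to 4, while P28 animal 1 shared none with P10. No pool held SP1 animals together with C57bl6J, Syn1Cre or GFAPCre animals, and the effects of pool and of group cannot be told apart. Where nothing in the labels speaks of separate litters or injections, the p-values measure the spread between these animals.

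To show what the strongest member windows look like at the sequence level, the 250 bases before 6 gene starts are printed below, 5' to 3' on the gene's own strand, from RefSeq (GRCm38.p6). They are the starts with most P10 insertions within 1 kb among the genes of the windows with the most insertions or the highest ratio. GC boxes (GGGCGG, or CCGCCC where it lies on the other strand) are in capitals. The stretches are Lims1 at chr10:58323297-58323546 (plus strand), Vkorc1l1 at chr5:129941859-129942108 (plus), Wipi1 at chr11:109611390-109611639 (minus), Cdkn2d at chr9:21291210-21291459 (minus), Mlf2 at chr6:124931138-124931387 (plus) and Prkar1a at chr11:109648773-109649022 (plus).
Lims1: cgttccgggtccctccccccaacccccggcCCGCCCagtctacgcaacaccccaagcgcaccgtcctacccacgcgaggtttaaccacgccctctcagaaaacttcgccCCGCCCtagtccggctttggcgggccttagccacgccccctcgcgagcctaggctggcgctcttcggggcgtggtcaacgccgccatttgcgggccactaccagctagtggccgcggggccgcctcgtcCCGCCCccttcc
Vkorc1l1: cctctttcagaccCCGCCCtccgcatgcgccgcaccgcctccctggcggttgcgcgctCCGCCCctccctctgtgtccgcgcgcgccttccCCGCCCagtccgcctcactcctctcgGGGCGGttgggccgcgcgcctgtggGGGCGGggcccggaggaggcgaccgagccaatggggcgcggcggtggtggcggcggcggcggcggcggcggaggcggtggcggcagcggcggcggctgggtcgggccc
Wipi1: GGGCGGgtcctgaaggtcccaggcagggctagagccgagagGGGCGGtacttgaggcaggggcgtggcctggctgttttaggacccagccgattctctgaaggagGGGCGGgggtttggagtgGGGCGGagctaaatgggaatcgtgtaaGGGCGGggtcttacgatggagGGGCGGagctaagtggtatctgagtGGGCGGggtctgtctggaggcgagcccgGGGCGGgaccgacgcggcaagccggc
Cdkn2d: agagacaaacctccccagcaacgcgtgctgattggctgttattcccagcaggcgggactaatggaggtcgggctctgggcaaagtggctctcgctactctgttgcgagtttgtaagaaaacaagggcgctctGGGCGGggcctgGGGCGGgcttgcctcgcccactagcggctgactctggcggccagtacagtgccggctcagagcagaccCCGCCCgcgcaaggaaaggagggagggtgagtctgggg
Mlf2: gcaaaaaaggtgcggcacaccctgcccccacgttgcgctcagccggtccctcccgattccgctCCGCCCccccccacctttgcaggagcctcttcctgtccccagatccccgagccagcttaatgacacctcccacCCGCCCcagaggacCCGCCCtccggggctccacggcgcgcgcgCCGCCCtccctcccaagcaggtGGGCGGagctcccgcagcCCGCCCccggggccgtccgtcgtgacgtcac
Prkar1a: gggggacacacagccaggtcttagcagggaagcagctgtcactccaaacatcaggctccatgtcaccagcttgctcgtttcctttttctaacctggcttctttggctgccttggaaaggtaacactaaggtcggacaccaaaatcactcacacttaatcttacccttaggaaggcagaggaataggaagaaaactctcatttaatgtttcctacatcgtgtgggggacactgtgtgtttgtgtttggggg

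The Wipi1 stretch held 8 GC boxes, Mlf2 held 6, Vkorc1l1 held 5, and Lims1 and Cdkn2d held 3 each. The Prkar1a stretch, before 1 of several listed starts of that gene, held 0, with 48.4% G or C against 63.6% to 81.2% in the other stretches. Wipi1, a phosphoinositide-binding protein of autophagy, and Prkar1a, a regulatory subunit of protein kinase A, lie in the same member window. Within 1 kb of the Wipi1 start there were 113 P10 insertions and 63 Syn1Cre insertions, a CPM ratio of 36.8. Within 1 kb of the Prkar1a start there were 80 and 291, a ratio of 5.63. The summed P28 animals, which the rule did not use, had 222 CPM at the Wipi1 start and 202 at the Prkar1a start, against 9.06 and 46.4 in C57bl6J. The P28 values of these starts lay within 10% of each other, and the C57bl6J values differed more than 5-fold. At the Vkorc1l1 start, which belongs to a vitamin K epoxide reductase homologue, the P28 value was 214 CPM and the C57bl6J value 3.84. At Lims1, an adaptor of integrin adhesions, they were 319 and 18.4, at Cdkn2d, a cyclin-dependent kinase inhibitor, 162 and 6.86, and at Mlf2, 143 and 10.2.

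Over all promoters, motifs were counted on both strands in the 300 bases from 250 before to 50 after each listed start, and matches of different motifs may overlap. Of 539 promoters in member windows with 5 or more P10 insertions within 1 kb, 80.5% held GGGCGG and 62.0% held it at 2 or more places. Of 213 promoters in member windows with 0 P10 insertions within 1 kb, 47.4% held it, close to the 47.0% of all 20085 protein-coding promoters. In the other windows with 30 or more P10 insertions the share was 61.8% of 1410. The median G or C content followed the same order, at 63.7%, 57.7%, 57% and 61.2%. CCAAT was found in 41.2%, 31.9%, 38.1% and 38.9% of these promoters. TATAAA was found in 5.94%, 7.04%, 12.7% and 7.52%, so its share was also low in member promoters with 0 insertions and in the other 30-insertion windows. CCGGAAG was found in 13.9%, 13.6%, 11.9% and 11.6%. These shares describe letters in the window, and P10 insertions chose the promoters compared. A check of coordinates found TTAA at all 2879 distinct P10 positions that fell inside a listed promoter.

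The member windows were rich in genes. Their median number of overlapping protein-coding genes was 2 and their mean 2.69. The other windows with 30 or more P10 insertions had a median of 1 and a mean of 1.57. All non-member windows, those 1201 included, had 1 and 0.828. Of the members, 44.1% (180 windows) held 3 or more genes, against 17.3% of the other 30-insertion windows and 5.33% of all non-members. Only 9 members (2.21%) overlapped no protein-coding gene, against 12.8% and 42.1%. A gene start listed by RefSeq lay in 352 of the 402 members on chromosomes with entries (87.6%), against 61.1% and 25.3%. Genes covered a median of 68.5% of a member window, 61.3% of the other 30-insertion windows and 22.9% of all non-members. Among RNA genes, 12.3% of members held a microRNA gene against 5.41% and 1.77%, and 42.6% held a long noncoding RNA gene against 47.9% and 27.8%. Pseudogenes were found in 16.4% of members against 12.3% and 15.6%, and tRNA genes in 4 members.

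**Figure D1:**
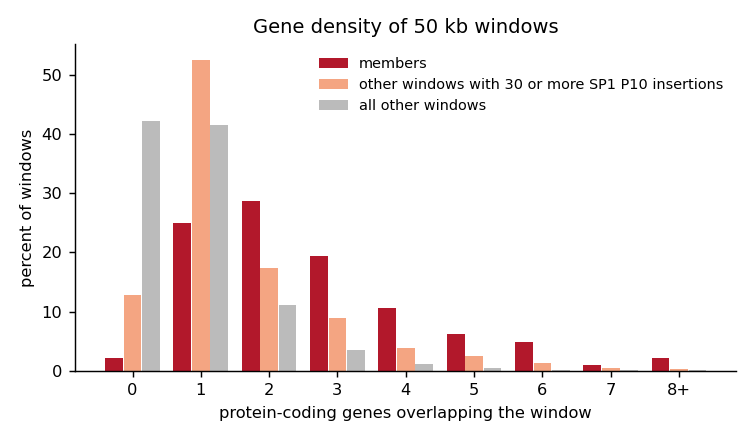
Share of 50 kb windows (y axis, percent) by the number of protein-coding genes that overlap them (x axis). Shown are the 408 member windows, the other 1201 windows with 30 or more SP1 P10 insertions and all non-member windows, those 1201 included. Members lie to the right, with 2.21% at 0 genes against 42.1% of all non-member windows.

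Members were spread over all 19 chromosomes and unevenly so. Chromosome 7 held the most, 45, and the highest share of its windows, 1.73%. The next shares were 1.60% on chromosome 17 and 1.43% on chromosome 11, while chromosome 16 held 4 (0.211%). Chromosomes 7 and 11 also had the highest mean numbers of protein-coding genes per window, 1.16 and 1.15, and chromosome 16 had 0.773. Other chromosomes departed from this order. Chromosome 19, with 1.09 genes per window, had 0.9475% of its windows as members. Chromosomes 5 and 10, with 0.863 and 0.815 genes per window, had 1.34% each. The 408 windows formed 352 separate stretches, and 96 members lay directly beside another. The longest stretch was 6 windows on chromosome 10, from 80100001 to 80400000, and another of 5 windows began at 80550001 on the same chromosome. Those windows hold Midn, Cirbp, Fam174c, Efna2, Rexo1, Klf16 and Abhd17a among others.

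Members held 30 to 262 P10 insertions (median 51), and their ratio to Syn1Cre ran from 5.01 to 36.1 (median 7.54). On the CPM scale the median member had 192 at P10 and 25.4 in Syn1Cre. The other 30-insertion windows had 154 and 78.8, and all non-member windows 7.52 and 11.2. The rule itself fixes most of these differences. It also largely fixes that every P10 animal lay above every Syn1Cre animal in all 408 members, which was not counted in other windows. Of the members, 6 drew over 50% of their P10 insertions from 1 animal. At the edge of the ratio, the windows of Bri3bp and Aacs and of Anapc1 and Mertk lay inside at 5.01, and those of Ptpn11 at 4.99 and Prex1 at 4.97 lay outside. At the edge of the count, 10 members had exactly 30 insertions, among them the window of E2f5, Rbis and Car13, and 7 windows past the ratio had 29, among them that of Fam210b, Aurka, Cstf1 and Cass4.

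**Figure D2:**
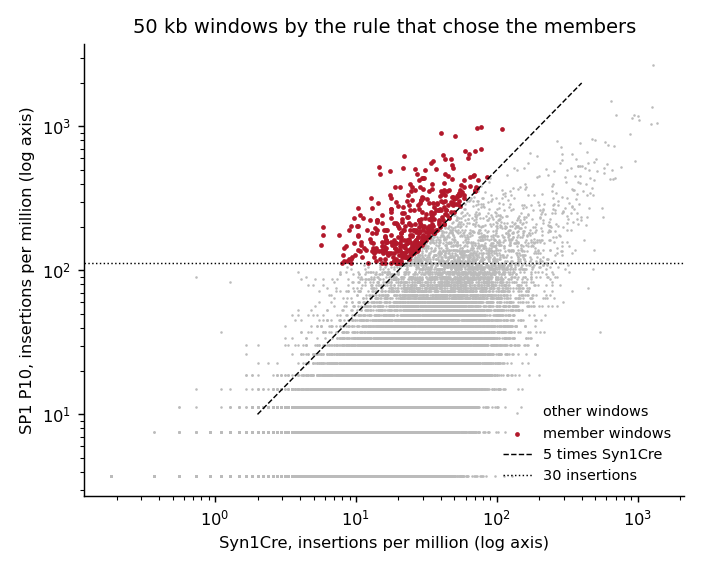
CPM in SP1 P10 (y axis, log) against Syn1Cre (x axis, log), 1 point per 50 kb window with an insertion in both, with members in red. The dashed line marks 5 times the Syn1Cre value and the dotted line 30 P10 insertions. Many windows with higher Syn1Cre values reach the dotted line and stay below the dashed one.

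The gain was present in the P28 animals. Of their insertions, 6.19% in animal 1, 7.97% in animal 2, 7.03% in animal 3 and 5.25% in animal 4 lay in member windows. The C57bl6J animals had 1.09% and 1.02%, and the GFAPCre animals 1.08% to 1.15%. Every P28 animal lay above every animal of both groups, animal 1 included, which shared no pool with P10. The P10 animals, which chose the windows, had 8.97%, 10.2% and 10.3%, and the Syn1Cre animals 1.05% to 1.31%. The N2a table had 2.09%. The deepest P28 table, animal 4, had the lowest share of its group.

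**Figure D3:**
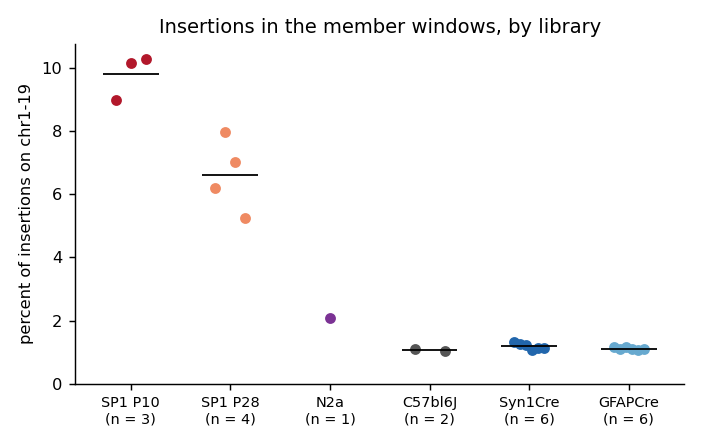
Percent of each library's insertions on chromosomes 1 to 19 that lay in the 408 member windows (y axis), by group (x axis), 1 point per animal or table, with the group mean as a bar. The P28 points, 5.25% to 7.97%, lie above all C57bl6J, Syn1Cre and GFAPCre points and above N2a at 2.09%.

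Window by window, the P28 animals were tested against C57bl6J and against GFAPCre with edgeR's quasi-likelihood test over all windows that passed its filter on low counts (adjusted p under 0.05, Benjamini-Hochberg). Against C57bl6J, 27.3% of 15031 windows were called higher in P28, and 408 of 408 members were. Against GFAPCre, 22.1% of 18825 windows were called higher, and all 407 members that passed the filter were. These comparisons share the P28 animals. The members' median log2 fold change over C57bl6J was 2.28, with a range from 1.07 to 5.34, against -0.12 for the windows that were not members. Over GFAPCre it was 2.51, from 0.99 to 4.84, against -0.13. Of the other 1201 windows with 30 or more P10 insertions, 66.4% were called higher over C57bl6J with a median of 0.95, and 66.6% over GFAPCre with a median of 0.87. In 406 of 408 members every P28 animal lay above both C57bl6J animals, and in 406 above all GFAPCre animals. This separation was not counted over all windows, so these counts have no background beside them. The filter was met in the control animals alone by 147 members for C57bl6J and by 280 for GFAPCre, and the others passed through the SP1 animals. Without a filter all 408 members were tested and called higher in both comparisons, where 11.7% and 9.36% of all windows were. With P28 animal 1 as the only SP1 animal, the members' median log2 fold change was 2.67 over C57bl6J and 2.58 over GFAPCre. All windows tested in these fits had medians of -0.46 and -0.20. The spread in these fits comes from the control animals alone.

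The window with the most P10 insertions lies on chromosome 10 (80150001 to 80200000) and holds Midn, Cirbp, Fam174c and Efna2. Cirbp encodes a cold-inducible RNA-binding protein and Efna2 an ephrin ligand. It held 82, 92 and 88 P10 insertions. The P28 animals had 675, 827, 809 and 484 CPM, the C57bl6J animals 67.5 and 63.3, and N2a 154. All P28 animals lay several-fold above both controls, with a log2 fold change of 3.24 over C57bl6J (SE 0.31, edgeR adjusted p = 4.49e-09) and 3.17 over GFAPCre (SE 0.19, edgeR adjusted p = 1.40e-14).

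The next was the window of the Sp1 gene itself, which also holds Amhr2, the receptor of anti-Müllerian hormone (chromosome 15, 102400001 to 102450000). It held 78, 84 and 95 P10 insertions, and 437, 686, 473 and 319 CPM at P28 against 47.0 and 46.9 in C57bl6J. The log2 fold change over C57bl6J was 3.14 (SE 0.30, edgeR adjusted p = 5.34e-09). Its P10 insertions were spread over 58 sites, the most of any member, and the leading site held 9.73% of them. Only 5.84% of its P28 insertions lay within 1 kb of a gene end, and 72.9% lay within 5 kb. The leading site lay 1062 bases upstream of the Sp1 start and was also hit by both C57bl6J animals (9 and 11 insertions) and by N2a (12).

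The Wipi1 and Prkar1a window (chromosome 11, 109600001 to 109650000) had 711, 996, 703 and 560 CPM at P28, the highest mean of all members (742 ± 183, SD, n = 4). C57bl6J had 101 and 86.2, and N2a had 717, the highest N2a value of all members and within the range of the P28 animals. Its log2 fold change over C57bl6J was 2.80 (SE 0.30, edgeR adjusted p = 2.57e-08). The other windows with most P10 insertions were those of Zbed5, Nupr1l and Vkorc1l1, of Gcc2 and Lims1, of Rexo1, Klf16 and Abhd17a, of Lag3, Ptms and Mlf2, and of Zfp78 and Zfp28. Klf16 is a Krüppel-like factor of the same zinc finger family as SP1. These 5 windows held 178 to 240 P10 insertions, and their log2 fold changes over C57bl6J ran from 2.71 to 3.79.

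The highest ratio belonged to the window of Limk1, a kinase that acts on the actin regulator cofilin (chromosome 5, 134650001 to 134700000). It held 38, 46 and 55 P10 insertions and 79 over all Syn1Cre animals, a ratio of 36.1. At P28 it had 322, 376, 355 and 253 CPM, against 21.2 and 17.8 in C57bl6J and 107 in N2a. All P28 values exceeded N2a, which in turn exceeded both C57bl6J animals. The log2 fold change over C57bl6J was 3.87 (SE 0.28, edgeR adjusted p = 9.86e-11).

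In the window of Sptbn4, a spectrin of axon initial segments, and Blvrb, a biliverdin reductase (chromosome 7, 27400001 to 27450000), the P28 animals had 119, 141, 137 and 88.6 CPM. C57bl6J had 2.65 and 3.28. The change over C57bl6J was 4.95 on the log2 scale (SE 0.34, edgeR adjusted p = 3.81e-11). More than 50% of the P10 insertions of this window (52.8%) lay at 1 site inside Sptbn4, 465 bases upstream of the Blvrb start. The largest fold change over C57bl6J was in the window of Cyhr1, Kifc2, Foxh1, Ppp1r16a and Gpt on chromosome 15, between 76650001 and 76700000. Kifc2 encodes a kinesin and Gpt an alanine aminotransferase. P28 values were 216, 272, 299 and 181 CPM against 3.97 and 5.62, a log2 fold change of 5.34 (SE 0.33, edgeR adjusted p = 8.63e-12). N2a had 74.6 there. Other large changes were 4.62 at Tubb6 and Afg3l2, 4.58 at Ptpn9 and Sin3a, 3.95 at Atg4d, Kri1, Cdkn2d and Ap1m2, and 3.89 at Pde4c, Rab3a, Mpv17l2, Ifi30, Pik3r2 and Mast3. Sin3a is the scaffold of a histone deacetylase corepressor, and Rab3a a GTPase of synaptic vesicles.

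A high P10 ratio over Syn1Cre did not always come with a correspondingly large P28 change over C57bl6J. These measures differ in both age and control group, and the windows below were named for their ratio. The window of Pck1, a gluconeogenic enzyme (chromosome 2, 173150001 to 173200000), had a ratio of 30.1 from 10, 12 and 25 P10 insertions. At P28 it had 53.0, 56.4, 37.3 and 31.9 CPM against 5.96 and 7.97 in C57bl6J, a log2 fold change of 2.29 (SE 0.38, edgeR adjusted p = 1.95e-05). The window of Mier3 and Map3k1, a kinase upstream of JNK signalling, had a ratio of 31.6 and a log2 fold change of 3.82 (SE 0.26, edgeR adjusted p = 3.81e-11).

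**Figure D4:**
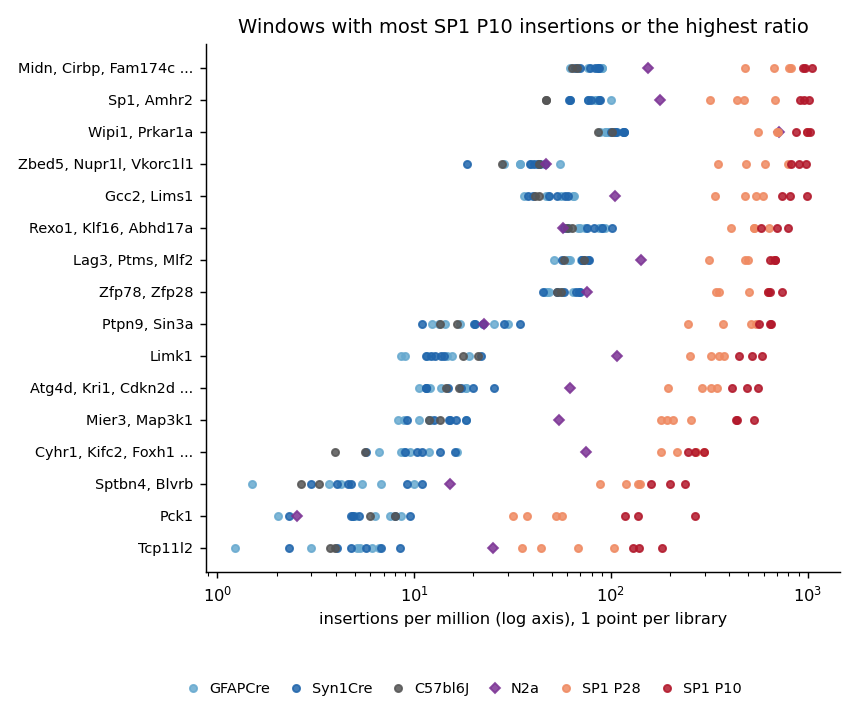
CPM (x axis, log) in the windows with most P10 insertions or the highest ratio (y axis), 1 point per animal, with N2a as a diamond. In every window drawn, all P10 and P28 points lie to the right of all C57bl6J, Syn1Cre and GFAPCre points, and N2a reaches the SP1 points only at Wipi1 and Prkar1a.

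The smallest changes over C57bl6J were 1.07 at Morn5 and Lhx6, 1.08 at Fer, 1.11 at Gtdc1, 1.11 at Rps6ka5, 1.14 at Ago1 and Ago4 and 1.23 at Simc1 (SE 0.22 to 0.34, edgeR adjusted p from 1.47e-04 to 0.00823). In the window of Lhx6, a homeobox factor of cortical interneurons, the P28 animals had 39.7, 18.8, 24.9 and 40.7 CPM and C57bl6J 11.9 and 17.3. The lowest P28 animal was close to the higher C57bl6J animal. Over GFAPCre the same window had a log2 fold change of 3.23 (SE 0.38, edgeR adjusted p = 3.19e-08). At Rps6ka5 P28 animal 2 had 9.39 CPM, below both C57bl6J animals at 29.8 and 42.2, while the other 3 had 80.9 to 108. The Lhx6 window was not called with the animal number as a block (1.35, edgeR adjusted p = 0.0998), by DESeq2 (0.96, adjusted p = 0.130) or with P28 animal 1 as the only SP1 animal (1.60, edgeR adjusted p = 0.0506). Simc1 was not called with the block (1.10, edgeR adjusted p = 0.0702), over distinct positions (0.65, edgeR adjusted p = 0.0644) or with P28 animal 1 alone (1.10, edgeR adjusted p = 0.134). Ago1 and Ago4 were not called over distinct positions (0.41, edgeR adjusted p = 0.260) or with P28 animal 1 alone (1.17, edgeR adjusted p = 0.0929). Rps6ka5 was not called by DESeq2 (0.92, adjusted p = 0.115). Without P28 animal 4 the Rps6ka5 log2 fold change was 0.50 (edgeR adjusted p = 0.138), and without C57bl6J animal 1 it was 0.57 (edgeR adjusted p = 0.214). Fer was not called without C57bl6J animal 1 (0.97, edgeR adjusted p = 0.0692) or animal 2 (0.75, edgeR adjusted p = 0.182), nor over distinct positions (0.54, edgeR adjusted p = 0.190).

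Insertions in member windows lay close to gene ends, and closer with SP1 than without it. In the median member, 60.3% of P28 insertions lay at most 1 kb away from where a protein-coding gene starts or stops, counted here as near a gene end. By animal the median was 61.2%, 65.4%, 66.7% and 53.7%. The P10 value was 66.7%, while C57bl6J had 30.5%, GFAPCre 30.4%, Syn1Cre 30.5% and N2a 27.8%. Pooled over members, 40.7% to 52.0% of the P28 insertions and 47.8% to 51.9% of the P10 insertions lay within 1 kb of a gene start. The corresponding share was 23.5% in both C57bl6J animals, 24% to 27.6% in GFAPCre, 24.7% to 29.6% in Syn1Cre and 23.8% in N2a. The 3' ends of genes with a listed start contributed little. Near such a 3' end but no start lay 4.46% to 4.86% of P28 insertions, against 6.34% and 6.48% in C57bl6J. Outside the members, 12.2% to 16.9% of P28 insertions and 4.07% and 4.23% of C57bl6J insertions lay within 1 kb of a gene start. In the other windows with 30 or more P10 insertions these shares were 18% ± 1.42 (SD, n = 4) for P28 and 7.09% ± 0.191 (SD, n = 2) for C57bl6J. RefSeq starts were listed for 871 of the 1060 genes of the member windows, so shares near a start are lower bounds. The 3' ends of the other genes were not counted.

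Around the starts, the SP1 insertions lay mostly upstream. At P28, 33.2% of member insertions lay in the 1000 bases before a start and 12.5% in the 1000 bases after it, and in C57bl6J 17% and 6.52%. Per 100 bases, the P10 share was highest 300 to 400 bases upstream, at 5.26%, where P28 had 4.44% and C57bl6J 2.19%. It fell to 1.43% in the first 100 bases after the start at P10, to 1.17% at P28 and to 0.331% in C57bl6J. A second rise lay 500 to 600 bases downstream, at 2.00%, 1.97% and 1.05%. The SP1 shares were higher than those of C57bl6J on both sides of the start, and by a larger factor in the first 100 bases after it than at the upstream peak.

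**Figure D5:**
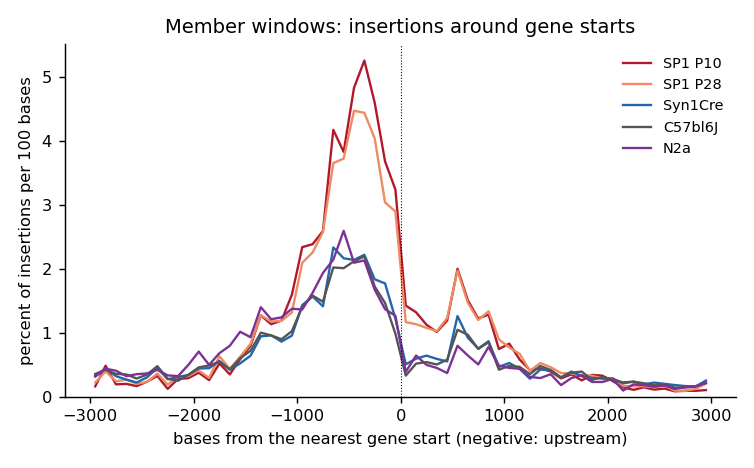
Percent of each group's member-window insertions per 100 bases (y axis) by distance from the nearest listed gene start (x axis, bases, negative upstream). The P10 and P28 lines peak within 500 bases upstream at 5.26% and 4.47%. C57bl6J peaks there at 2.19%, while Syn1Cre and N2a peak further upstream, at 2.33% and 2.59%.

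The same TTAA positions were used again and again. The median member held P10 insertions at 16 sites, from 4 to 58, and its leading site held a median of 29.8% of them. In 33 members the leading site held over 50%, up to 87.5%. Of the 7060 positions hit at P10 within members, 1649 were hit in all 3 animals, and these carried 68.1% of the P10 insertions there. Of these 1649 positions, 99.6% were hit in at least 1 P28 animal and 78.2% in all 4. Of the 4053 positions hit in 1 P10 animal, 59.4% and 4.66% were. Among the positions hit in all 3 animals, 83.9% were also hit in C57bl6J and 57.6% in N2a, and 61.6% lay within 1 kb of a gene end, against 23.9% of positions hit in 1 animal. Of the P28 insertions in members, 82.6% in animal 1 and 86.3%, 85.5% and 73.9% in animals 2 to 4 lay on a position hit at P10. In C57bl6J this was 50.3% and 48.6%, and in N2a 46.3%. P10 insertions chose these windows, and the shares were not counted in other windows, so they have no background beside them. Insertions per distinct position in members numbered 2.00 to 2.29 in the P28 animals, 1.56 and 1.65 in C57bl6J and 1.80 in N2a. This order was reversed in the other windows with 30 or more P10 insertions. There P28 had 1.48 to 1.87, N2a 1.97 and C57bl6J 2.13 and 2.34. Each cortex was divided into 10 parts, so that a position and strand can count at most 10 times per animal. Positions at that ceiling held 2.24% to 5.97% of the P28 member insertions and 0.0606% and 1.74% of those of C57bl6J.

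The 20 positions with most P10 insertions held 33 to 47 each and were hit in every P10 and every P28 animal. Of these, 13 lay within 1 kb of a gene end and 9 within 1 kb of a listed gene start. Only 1 of the 20 had 0 insertions in C57bl6J, and the others were also hit there. A position inside Mast3, a microtubule-associated kinase (chromosome 8, 70797553 to 70797556), was hit 11, 14 and 14 times at P10 and 15, 12, 17 and 14 times at P28. It was hit 0 times in C57bl6J, Syn1Cre and N2a, which allows up to 0.823, 0.551 and 3.79 CPM by counting error, against 147 CPM at P10 and 54.8 at P28. The leading position of the Sin3a window (chromosome 9, 57075366 to 57075369) lay inside the annotated Sin3a gene, 1010 bases upstream of one of its listed starts. It had 13, 15 and 14 insertions at P10, 14, 11, 14 and 16 at P28, 1 and 3 in C57bl6J and 5 over all Syn1Cre animals. A position 527 bases upstream of Abhd17a, a depalmitoylase, had 9, 12 and 14 at P10, 15, 11, 14 and 16 at P28, and 0 and 1 in C57bl6J. Such positions stood beside others that all groups used. The leading position of the window nearest Sertad2 had 34 insertions at P10, 14 and 19 in the C57bl6J animals and 22 in N2a, which is 128, 9.06 and 27.8 CPM.

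The 9 members without a protein-coding gene were also called higher over C57bl6J, and 8 of them are described here, by their P10 insertions. They lay nearest Snx5, Spring1, Bag3, Sertad2, Helt (2 windows), Slc38a2 and Acsl1, with log2 fold changes from 1.32 to 2.66. The window nearest Snx5, a sorting nexin (chromosome 2, 144150001 to 144200000), had 309, 272, 292 and 223 CPM at P28 against 51.6 and 48.3 in C57bl6J and 233 in N2a. The change over C57bl6J was 2.28 on the log2 scale (SE 0.25, edgeR adjusted p = 3.62e-08). The windows nearest Helt and Acsl1 lie side by side on chromosome 8 in a stretch of 4 members that begins at 46300001. In the window at 46300001 the P28 animals had 48.5, 65.8, 106 and 92.1 CPM and C57bl6J 13.2 and 12.7, and N2a had 116. Of 8 such windows, 7 had 0% of their P28 insertions within 1 kb of a gene end, and the window nearest Slc38a2, a glutamine transporter, had 38.8%.

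By class, 1060 of 20665 protein-coding genes (5.13%) overlapped a member window and 1722 (8.33%) one of the other windows with 30 or more P10 insertions. Of the 1060, 484 had 5 or more P10 insertions within 1 kb of a listed start. Among Sp and Klf factors, 4 of 25 genes lay in members (16%), namely Klf16, Sp4, Sp7 and Sp1. Proteasome genes had 6 of 50 (12%), Psmb3, Psme1, Psme2, Psmd4, Psmd8 and Psmd13. Splicing factors had 6 of 51 (11.8%), among them Sf3a2 and Snrpa, but 0 of these 6 had 5 or more P10 insertions within 1 kb of a listed start, against 4 of the 6 proteasome genes. Genes with symbols of ribosomal proteins had 10 of 93 (10.8%), such as Rps15, Rpl41 and Rpl11, but Rps6ka5 and Rps6kb2 among them are protein kinases. Translation factors had 6 of 67 (8.96%), among them Eef2, Eif4a1 and Eif5a, and ubiquitin enzymes 13 of 168 (7.74%). RNA polymerase and Mediator genes had 5 of 57 (8.77%), including Polr2a, the largest subunit of RNA polymerase II. Small GTPases had 8 of 82 (9.76%), tubulins 4 of 23 (17.4%), kinesins and dyneins 6 of 73 (8.22%) and MAP kinase pathway genes 6 of 75 (8.00%). In the other 30-insertion windows some shares were higher, at 34.8% for tubulins, 15.9% for small GTPases and 14.7% for MAP kinase pathway genes. Splicing factors had 13.7% there and translation factors 10.4%, while RNA polymerase and Mediator genes had 8.77% in both. The shares of Sp and Klf factors, proteasome genes, ribosomal protein symbols, ubiquitin enzymes, and kinesins and dyneins were lower there than in members. Every class was assigned by gene symbol, which placed Rab3il1 among the small GTPases and Eef2kmt among the translation factors. A class may therefore hold genes of another function. With so few genes in each class, a difference of 1 or 2 genes moves these shares by several points.

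Other classes had few or 0 genes in members. At the share of all genes a class of 18 to 25 genes would hold about 1, so a count of 0 there says little, and no difference between classes was tested. Of 18 immediate early genes, such as Fos and Arc, 0 lay in members and 8 in the other windows. Of 67 protocadherins it was 0 and 24, and of 74 histone genes 0 and 27. Homeobox genes had 1 of 68 in members (Lhx6) and 5 in the other windows, and bHLH genes 0 and 4 of 25. Synaptic vesicle genes had 2 of 57 in members (Snap23 and Stx1a) and 11 in the others, and glutamate receptors 2 of 23 (Grin3b and Grik5) and 7. Calcium and sodium channels had 1 and 7 of 39, and potassium channels 4 and 11 of 92. Solute carriers, with 19 and 31 of 362, Zfp genes, with 17 and 24 of 388, oxidative phosphorylation genes, with 6 and 13 of 96, and chaperones, with 5 and 8 of 84, had shares in members between 4.38% and 6.25%, close to the 5.13% of all genes. Cyclins and their kinases had 2 and 7 of 53, Notch pathway genes 1 and 5 of 22, tRNA synthetases 1 and 2 of 36, and GABA receptors 1 and 0 of 18. Of 53 keratins and 29 Wnt and Fzd genes 0 lay in members, and of 1453 olfactory and vomeronasal receptors 1 did. Of the cell type markers, read as loci, the members held Tubb3 of 13 neuron markers, 0 of 10 astrocyte markers, Mog of 8 oligodendrocyte markers, Aif1 of 6 microglia markers and 0 of 5 endothelial markers. Of the neuron markers 7, and of the astrocyte markers 4, lay in the other 30-insertion windows.

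Single positions in 3 of these classes show the counts behind the shares. The Tubb3 gene shares its window on chromosome 8 with Tcf25, Mc1r and Def8, and a position 434 bases after the Tubb3 start had 8, 7 and 9 insertions at P10 and 13, 7, 10 and 14 at P28. C57bl6J had 1 and 0 there. A position 38 bases after the start of Psmd8, a proteasome subunit, had 6, 7 and 11 at P10, 10, 10, 10 and 14 at P28 and 0 and 2 in C57bl6J. At Rpl41, a ribosomal protein, the leading position lay 104 bases upstream and had 11, 6 and 10 at P10, 11, 7, 10 and 13 at P28, 5 and 6 in C57bl6J and 11 in N2a.

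N2a stood between the SP1 animals and the other tables. The median member had 39.2 CPM in N2a, 125 over the summed P28 animals and 22.8 in C57bl6J. In the other windows with 30 or more P10 insertions N2a had 55.6 and C57bl6J 66.7. The N2a value exceeded the C57bl6J value in 307 of 408 members, was at least 5 times as high in 27, and had a median ratio of 1.68. The highest N2a values were 717 at Wipi1 and Prkar1a, 294 in the window nearest Bag3, a cochaperone, 239 at Gtdc1, 233 nearest Snx5 and 199.7 at Esyt1, Zc3h10 and Rpl41. The lowest were 0 at St3gal1, a sialyltransferase, which allows up to 3.79 CPM by counting error, and 1.26 at Sh3bp4, Itpkb, Gm30679 and Smox, and the window nearest Spring1. These 5 windows had P28 values of 70.9 to 291 CPM in every animal. The N2a table holds no separate experiments, so no difference from it was tested.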

How the data were processed

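Insertions from 47 deposited tables (46 animals and N2a) were used. Per the submitters' processing notes, mm10, Novoalign and Bowtie2 were used, and the role of each aligner and further filters are not given in the sources used here. The deposited read counts are raw counts per insertion, judged from their values. An insertion was 1 line of a table, so the same position in several cortex parts counted several times. Positions of the BrokenHeart tables were moved by 1 base to match the others. Insertions were counted in 50 kb windows. Windows were tested with edgeR 4.0.16 (TMM factors, filterByExpr, glmQLFit) in R 4.3.3, with DESeq2 1.42.0 as an alternative, over all windows that passed the filter and with only the groups compared in each fit. On counts simulated for the comparison with C57bl6J (15031 windows), the test recovered 100% of windows changed 5-fold and 28.0% of those changed 2-fold. The simulation gave every window the same set dispersion, not estimated from these animals. These shares are therefore not the test's power on the real counts. Genes and starts came from RefSeq tables of GRCm38.p6. Gene structure below the level of whole genes and starts was not used here. The members, gene classes and named windows were chosen with earlier results of these data known. Windows named were the 8 with most P10 insertions, the 8 with the highest ratio, the 6 highest and 6 lowest by fold change over C57bl6J, up to 8 without a gene, the 5 highest and 5 lowest in N2a, those at the thresholds and up to 4 per gene class. SE values are the log2 fold change over the square root of the test's F statistic. Limits from counts of 0 cover counting error only, as insertions amplified by PCR carry no molecular identifiers here.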

Additional observations from a re-analysis of the deposited data

Results flagged for a closer look

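Among 98 groups of 4 to 10 animals checked for an animal far from the others, 5 were flagged, and chance flags about 1 in 20. In Syn1Cre, animal 5 had the highest shares of member insertions near genes, 37.6% within 1 kb of a gene end against 33.7% in the next animal, and 29.6% within 1 kb of a gene start against 25.1%. That animal had the fewest insertions of its group. In GFAPCre, animal 2 had the lowest share near a gene end, 32.5% against 34.4% in the next. In the window of Mier3 and Map3k1, GFAPCre animal 4 had 18.4 CPM against 12 in the next. At St3gal1, P28 animal 4 had 70.9 CPM against 74.6 in the next, in a group whose other values lay between 74.6 and 75.2.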

How the results depend on the processing

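The number of members moved with the thresholds that define them: 748 at a ratio of at least 3, 129 at a ratio of at least 10 and 159 with at least 60 insertions. Counting distinct positions, with 30 of them required, gave 147, of which 140 were members. Leaving out 1 animal at a time gave 235 to 423, lowest without P10 animal 3 (235) and P10 animal 2 (255), where the count of 30 was kept over fewer animals. With 20 insertions or windows shifted by 25 kb the number was 535 and 412. The median share of a member's P28 insertions near a gene end was 30.9% within 500 bases, 90.9% within 5 kb and 42.4% over distinct positions, and 58.3% to 64.9% with 1 P28 animal left out. Counting genes of every type, the median was 3 per member.

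Members called higher at P28 numbered 383 of 399 tested over C57bl6J and 392 of 402 over GFAPCre at distinct positions. Their median log2 fold changes were 1.58 and 1.79. Of all windows tested at distinct positions, 3022 of 12183 and 3186 of 17204 were called higher. With Syn1CreNeg as the control, only 376 of the 408 members passed the filter. Of these, 375 were called higher, where 1668 of 5598 windows were. Under DESeq2 406 and 407 members were called, where 2730 of 15031 and 3498 of 18825 windows were. With 1 P28 or GFAPCre animal left out, 402 to 408 members were called, where 2690 to 4780 of 7962 to 20144 windows were. With the animal number as a replicate block 404 and 407 members were called, where 3729 of 24702 and 3510 of 17059 windows were. The animal numbers did not pair the animals (correlations of deviations from -0.181 to 0.126). The background moved more: 4096 of 15031 windows were called higher than C57bl6J, but 2730 of 15031 under DESeq2 and 2690 of 7962 without P28 animal 4. Over GFAPCre 4156 of 18825 were, and 3498 of 18825 under DESeq2. Of 1059 refits of the 37 windows named by insertions, ratio, fold change, lack of genes or N2a value, 1041 kept direction and call and 18, in 6 windows, kept the direction but lost the call. The cause was not tested.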
